A study of Mus musculus with 12 samples.

Results

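The 7 genes described here, Socs3, Bcl3, Stat3, Lifr, Il6st, Pim1 and Pim3, belong to the pathway by which the cytokine LIF acts on mouse stem cells and germ cells. They are 7 of 18194 genes that the arrays measured through a probe set naming 1 gene, and all 7 were among the 13436 genes tested. Among 20 probe sets that name 1 of these genes alone, the one brightest on average over the arrays stands for its gene. The list was chosen by measured values, because Socs3 and Bcl3 had been seen to be lower in aggregated cells than in day 6 cells of culture, so that difference is given below as a description without a test.

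LIF binds a receptor made of LIFR and gp130, the product of Il6st, which other cytokines of the interleukin 6 family also use. The receptor activates JAK kinases, which phosphorylate the transcription factor STAT3, and STAT3 then enters the nucleus and raises target genes. Among known targets are Socs3, whose protein binds gp130 and JAK and shuts the signal down, Bcl3, an atypical member of the IκB family that acts in the nucleus, and the Pim kinases, which favour survival and growth. LIF is best known for holding mouse embryonic stem cells in self-renewal through STAT3, and medium for inducing germ cell-like cells commonly contains it. What the media of these samples contained is not given in the sources used here.

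Expression was measured on 12 Affymetrix arrays of mouse primordial germ cells (PGCs), from which oocytes and sperm descend, and of PGC-like cells (PGCLCs), which are induced in culture from embryonic stem cells. There were 6 groups of 2 arrays. Female PGCLCs were taken at day 3 (d3) or at day 6 (d6 female) of culture, and male PGCLCs at day 6 (d6 male). In the group d3ag6, female d3 PGCLCs had spent 6 further days aggregated with somatic cells from female E12.5 gonads, so that time and aggregation cannot be told apart against d3. The remaining groups were PGCs from the embryo, at E12.5 (female) and at E9.5, where the labels give the sex as unknown. PGCLCs had a C57BL/6 background and carried the BVSC reporters, Blimp1-mVenus and stella-ECFP, and PGCs came from crosses of a stella-EGFP male with a wild-type BDF1 female. Cells of every group were sorted on these reporters, and amplified cDNA of 5 ng RNA, the amount of 500 cells, went into each labelling. The strain background and the reporters therefore differ between PGCLCs and PGCs in every such comparison.

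Values are log2 signal after quantile normalization between arrays, so that a difference of 1 is a 2-fold change of signal. Changes are differences of group means with their standard error (SE) from limma, which estimates the spread from all 12 arrays with 6 residual degrees of freedom. A gene counts as called where its p, adjusted by Benjamini-Hochberg over the 13436 genes of a comparison, was under 0.05. The labels call the 2 arrays of a group biological replicates without saying which animals or cultures they came from, and p-values measure the spread between such arrays. In bulk samples, fewer cells of a type and less RNA per cell cannot be told apart. The 6 arrays of d3, d6 female and d6 male are called the culture arrays below. The sample titles also hold a code, which was EA0831 or EA0842 for d6 male and E9.5 and EA1013 for the remaining groups. Comparisons between these sets of groups cannot tell code and group apart, and d6 male minus E9.5 is the comparison of culture with E9.5 that stays within the code.

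STAT factors bind a palindrome, TTCNNNGAA (N stands for any base), which reads the same on both strands. It was searched in RefSeq promoter windows (build GRCm38.p6) from 250 bases before to 50 bases after each start site. Among the 9 windows of the 7 genes, the single match lay in the Socs3 window, 154 bases before the start site of that window at its first base. The whole RefSeq span of Socs3 (chr11:117966079-117970336) reaches further upstream, so the match lies inside that span. Zfp36 and Icam1, genes of the STAT3 target list that are described further below with their values, also had a match. Bcl6 and Sgk1 of the same list had matches too, were called in none of the 8 comparisons tested, and are not shown. Junb and Tfcp2l1, which are also described below, had none. The 3 matches are shown with 10 bases on each side so that the one member match can be read beside matches in targets whose values are given, and capitals mark the palindrome:
Socs3 (chr11:117969502-117969530, minus strand): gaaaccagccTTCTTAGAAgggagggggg
Zfp36 (chr7:28379227-28379255, minus strand): acagcctgacTTCTGCGAAccgacagtcg
Icam1 (chr9:21015888-21015916, plus strand): ggcgcgaggtTTCCCGGAAagtggccccg
Of all 32851 windows of this length, 8.3% held the palindrome. It was present for 5 of the 21 genes of the STAT3 target list that had a window, against 9.55% of all 27025 genes with one. A match is a run of letters and not a measured binding site, and windows without one show only that these letters are not there.

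Of the 7 genes, Socs3 and Bcl3 were bright in all 3 groups of cultured PGCLCs and far dimmer in aggregated PGCLCs and in PGCs of the embryo. Stat3 showed the same step at a smaller size, and PGCs at E9.5 and E12.5 lay closer to the aggregated than to the cultured cells in all 3 genes. The receptor genes Lifr and Il6st were bright in every group and differed little, and Pim1 and Pim3 differed between the 2 arrays of most groups, with 1 call between them that did not hold when an array was left out.

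Lifr, the LIF-binding chain, was 9.72 and 9.80 on the d3 arrays, 9.63 and 9.94 in d6 female, 9.53 and 9.40 in d6 male, 9.85 and 9.56 in d3ag6, 9.38 and 9.75 in E9.5, and 9.38 and 9.34 in E12.5. All 12 arrays lay within 0.60 of each other, and most groups overlapped. Limma called Lifr in none of the 8 comparisons tested, with 0 at an unadjusted p under 0.05, and its largest difference among them was -0.42 in E12.5 minus d6 female (SE 0.19, 95% interval -0.85 to 0.00, adjusted p = 0.156 by limma).

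Il6st, which encodes the shared signalling chain gp130, was 10.20 and 10.35 in d3, 10.12 and 10.06 in d6 female, and 9.86 and 9.93 in d6 male. It was 10.75 and 10.65 in d3ag6, 9.52 and 9.69 in E9.5, and 10 and 10.08 in E12.5. The d3ag6 arrays were the highest of the 12 and the E9.5 arrays the lowest, whereas d6 female and E12.5 overlapped. The order of the group means was d3ag6, d3, d6 female, E12.5, d6 male and E9.5, and of the neighbours tested, d3ag6 and d3 (adjusted p = 0.0964), d3 and d6 female (adjusted p = 0.613), d6 female and E12.5 (adjusted p = 0.852) and d6 male and E9.5 (adjusted p = 0.286) were not called different by limma. Il6st was higher in d3ag6 than in E12.5 by 0.66 (SE 0.14, adjusted p = 0.0232), a call that was lost with any 1 of the 4 arrays left out (adjusted p 0.0957 to 0.163) and with the mean of its probe sets (0.34, adjusted p = 0.376). Against E9.5 the d6 female value was higher by 0.49 (adjusted p = 0.055), just outside the threshold.

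Stat3, the transcription factor that carries the signal, was 9.78 and 9.65 in d3, 9.04 and 9.30 in d6 female, and 9.26 and 9.28 in d6 male. In d3ag6 it was 8.24 and 8.49, in E9.5 7.89 and 7.50, and in E12.5 8.05 and 8.02. Every culture array lay above every array of d3ag6 and of the embryo, with 0.55 between the lowest culture array and the highest of the others. The d3 mean of 9.71 ± 0.09 (SD, n = 2) headed the order, followed by d6 male, d6 female, d3ag6, E12.5 and E9.5. The neighbours d6 male and d6 female overlapped (difference -0.10 for female minus male, SE 0.18). The neighbours E12.5 and E9.5 differed by 0.34 (adjusted p = 0.215), and d3ag6 exceeded E12.5 by 0.33 (adjusted p = 0.335).

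Stat3 was lower in d3ag6 than in d3 (-1.35, SE 0.18, adjusted p = 0.00224 by limma), a 2.55-fold difference. It was lower in E12.5 than in d6 female, at -1.14 (adjusted p = 0.00316), and higher than in E9.5 both in d6 female (1.48, adjusted p = 0.00147) and in d6 male (1.57, adjusted p = 0.00112). Within the codes, d6 male exceeded E9.5 by 1.36 and 1.78. Phosphorylation of STAT3, which sets its activity, is not measured by these arrays.

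Socs3, the feedback inhibitor, was 9.52 and 9.70 in d3, 8.99 and 9.35 in d6 female, and 9.21 and 8.57 in d6 male. In d3ag6 it was 6.31 and 5.10, in E9.5 5.11 and 3.97, and in E12.5 3.14 and 3.48. The culture arrays stood together at the top, 2.27 above the highest other array. Below them came d3ag6, E9.5 and E12.5, of which d3ag6 and E9.5 overlapped by 1 array each.

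Socs3 was lower in d3ag6 than in d3 (-3.91, SE 0.46, adjusted p = 0.00118 by limma), a 15-fold difference. Because Socs3 was chosen for being lower in d3ag6 than in d6 female, its calls in comparisons with either group are a description. E12.5 minus d6 female gave -5.86 (adjusted p = 0.000104), against dim E12.5 arrays. The difference from E9.5 was 4.63 for d6 female (adjusted p = 0.000621) and 4.35 for d6 male (adjusted p = 0.000691), and 4.10 and 4.61 within the 2 codes. Socs3 was also higher in d3ag6 than in E12.5, by 2.40 (adjusted p = 0.0133). That call was lost without d3ag6 replicate 1 (1.79, adjusted p = 0.0785) and without either E12.5 array (adjusted p 0.103 and 0.0631). Both E12.5 arrays lay below 4.81, the median of all values, where signal is imprecise, and with values below that median set to it the difference fell to 0.89 (adjusted p = 0.179). E12.5 minus E9.5 gave -1.23, with an adjusted p of 0.0822.

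Bcl3 was 8.37 and 8.18 in d3, 8.59 and 9.02 in d6 female, and 8.83 and 8.27 in d6 male. It was 4.68 and 4.23 in d3ag6, 3.75 and 2.83 in E9.5, and 3.99 and 3.66 in E12.5. The culture arrays exceeded 4.81 and the other 6 did not, so Bcl3 passed the filter on dim genes only through the groups where it was high. The gap between the lowest culture array and the highest other array was 3.50, the widest of all genes tested. A gap of 2 or more was found in 0.0298% of them, Socs3 among them. The 3 culture groups overlapped one another or lay close together (d6 female minus d3 0.53, adjusted p = 0.506), and order among the 3 dim groups is not interpreted because their signal was below the median.

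Since Bcl3 had to differ to pass that filter, its calls are a description and support nothing further. Bcl3 was lower in d3ag6 than in d3 (-3.82, SE 0.33, adjusted p = 0.000271 by limma). It was lower in E12.5 than in d6 female (-4.98, adjusted p = 6.25e-05). It was higher than in E9.5 by 5.52 in d6 female (adjusted p = 7.87e-05) and by 5.26 in d6 male (adjusted p = 0.000132), with 5.08 and 5.44 within the codes. Because the lower side of each difference is dim, sizes depend on how dim values are treated. With values below the median set to it, the same 4 differences were -3.46, -3.99, 3.99 and 3.73, and all stayed called. Those of Socs3 became -3.91, -4.35, 4.21 and 3.93.

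**Figure D1:**
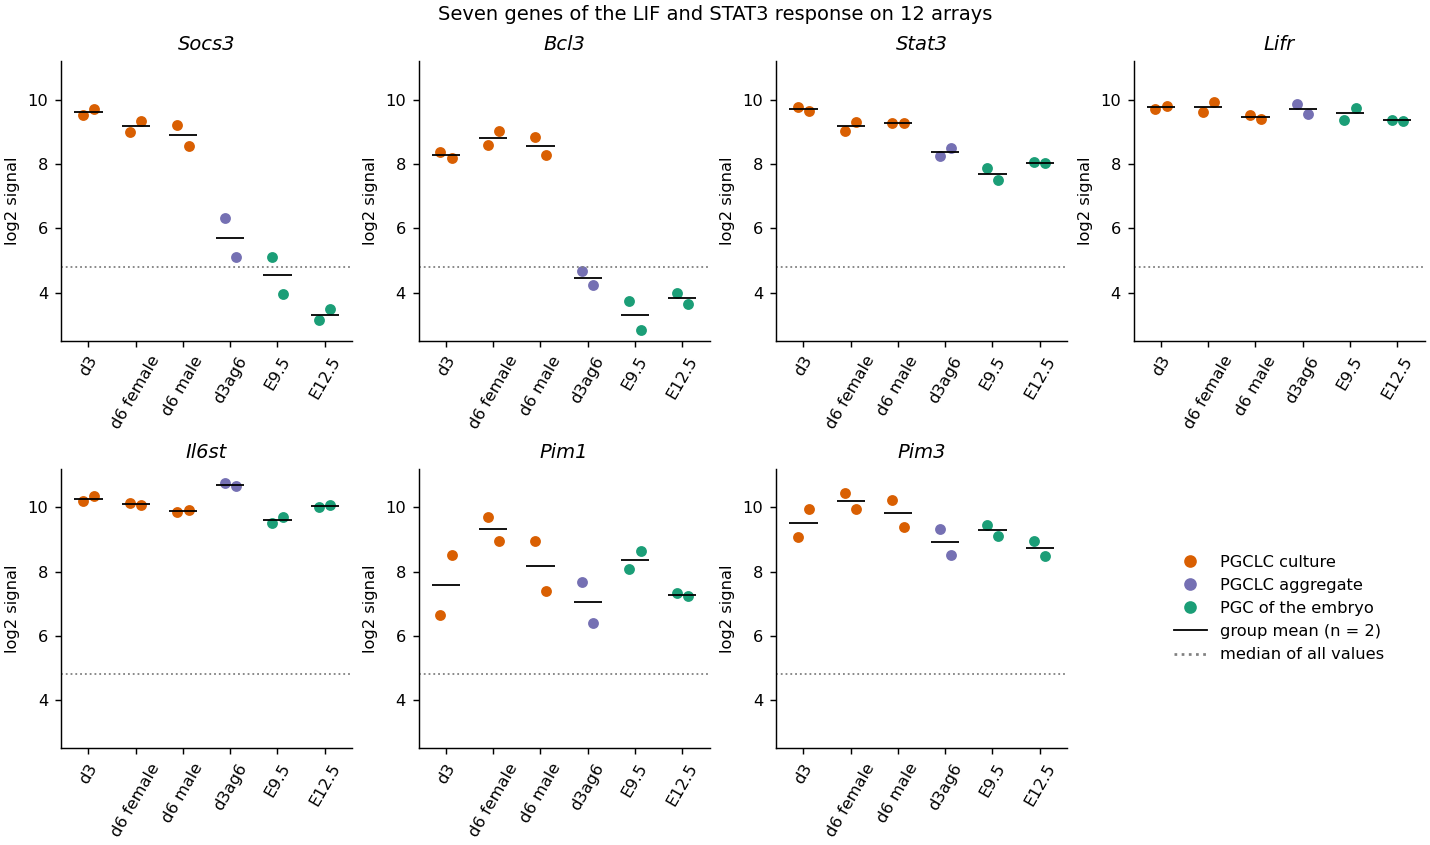
Log2 signal (vertical axis, quantile normalized) of each of the 7 genes on each of the 12 arrays, by group. Points are arrays, black lines the group mean (n = 2) and the dotted line the median of all values (4.81): Socs3 and Bcl3 stand at 8.57 or above and 8.18 or above on the culture arrays and at 6.31 or below and 4.68 or below on the others, Stat3 shows a narrower step, and Lifr stays between 9.34 and 9.94.

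The PIM kinases differed widely between the arrays of some groups. Pim1 was 6.66 and 8.51 in d3, 9.70 and 8.94 in d6 female, 8.94 and 7.39 in d6 male, 7.68 and 6.40 in d3ag6, 8.09 and 8.65 in E9.5, and 7.33 and 7.23 in E12.5. The higher d6 female array was the highest of all, and the 2 arrays lay far apart in d3, d6 male and d3ag6. Limma called Pim1 in none of the 8 comparisons tested, with 2 at an unadjusted p under 0.05. Its largest tested difference was -2.04 in E12.5 minus d6 female (SE 0.69, adjusted p = 0.072 by limma), and d6 female minus d3 was 1.74 (95% interval 0.17 to 3.31, adjusted p = 0.253).

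Pim3 was 9.09 and 9.95 in d3, 10.43 and 9.94 in d6 female, and 10.23 and 9.40 in d6 male. In d3ag6 it was 9.31 and 8.53, in E9.5 9.44 and 9.12, and in E12.5 8.96 and 8.49. The d6 female arrays lay above both arrays of d3ag6, E9.5 and E12.5, and both E12.5 arrays lay below those of d3, d6 male and E9.5. The d6 male arrays also lay above those of d3ag6, and d3 overlapped every group but E12.5. Pim3 was lower in E12.5 than in d6 female (-1.46, SE 0.40, adjusted p = 0.0342 by limma), a call that did not hold with any 1 of the 4 arrays left out (adjusted p 0.07 to 0.19). The remaining 7 tested differences of Pim3 ranged from -0.60 to 0.90, none of them called.

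Counted over the 7 genes, the comparisons fell into those between culture and the other groups, where 3 or 4 genes were called, and those within either side, where 0 to 2 were. In d3ag6 minus d3, 3 of 7 were lower and 0 higher, where 10.6% of all genes tested were called and 4.84% called lower. In E12.5 minus d6 female, 4 of 7 were lower and 0 higher (19.4% of all genes called, 10.1% lower). In d6 female minus E9.5, 3 of 7 were higher and 0 lower (13.9% called, 8.33% higher), and in d6 male minus E9.5 again 3 and 0 (10.6% called, 6.04% higher). Socs3, Bcl3 and Stat3 were the genes called in all 4 of these comparisons. These comparisons share arrays with one another, and the values above are given side by side without a test of their overlap. The first 3 also use the d3ag6 or d6 female arrays of the contrast behind the choice of the list, so their counts are not independent of that choice. The arrays of d6 male and E9.5 are not in that contrast. The members were still chosen with earlier results of these data known, so the count in d6 male minus E9.5 is a description too. The counts include Bcl3, which passed the filter only through the culture groups.

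Within culture, limma called none of the 7 genes in d6 female minus d3 (4.06% of all genes called), with 2 at an unadjusted p under 0.05, Stat3 and Pim1. It called none in d6 female minus d6 male (1.47%), with 0 at an unadjusted p under 0.05. The 95% intervals for d6 female minus d6 male were -0.76 to 1.31 for Socs3, -0.50 to 1.01 for Bcl3 and -0.51 to 0.32 for Stat3. Between the gonadal groups, d3ag6 minus E12.5, 2 of 7 were higher and 0 lower (9.03% called, 5.95% higher). In E12.5 minus E9.5 limma called none of the 7 (23.6% of all genes called), with 2 at an unadjusted p under 0.05, Socs3 and Il6st.

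The comparison behind the choice of the list, d3ag6 minus d6 female, gave -3.46 for Socs3, -4.35 for Bcl3, -0.81 for Stat3, -2.28 for Pim1, -1.27 for Pim3, 0.61 for Il6st and -0.08 for Lifr. Both d3ag6 arrays lay below both d6 female arrays in 5 of 7 genes and above them in 1, Il6st. Of all genes tested, 28.1% lay lower and 30.7% higher in that way, and 6.39% were called in either direction. Nothing is read from this count, since the contrast entered the choice.

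**Figure D2:**
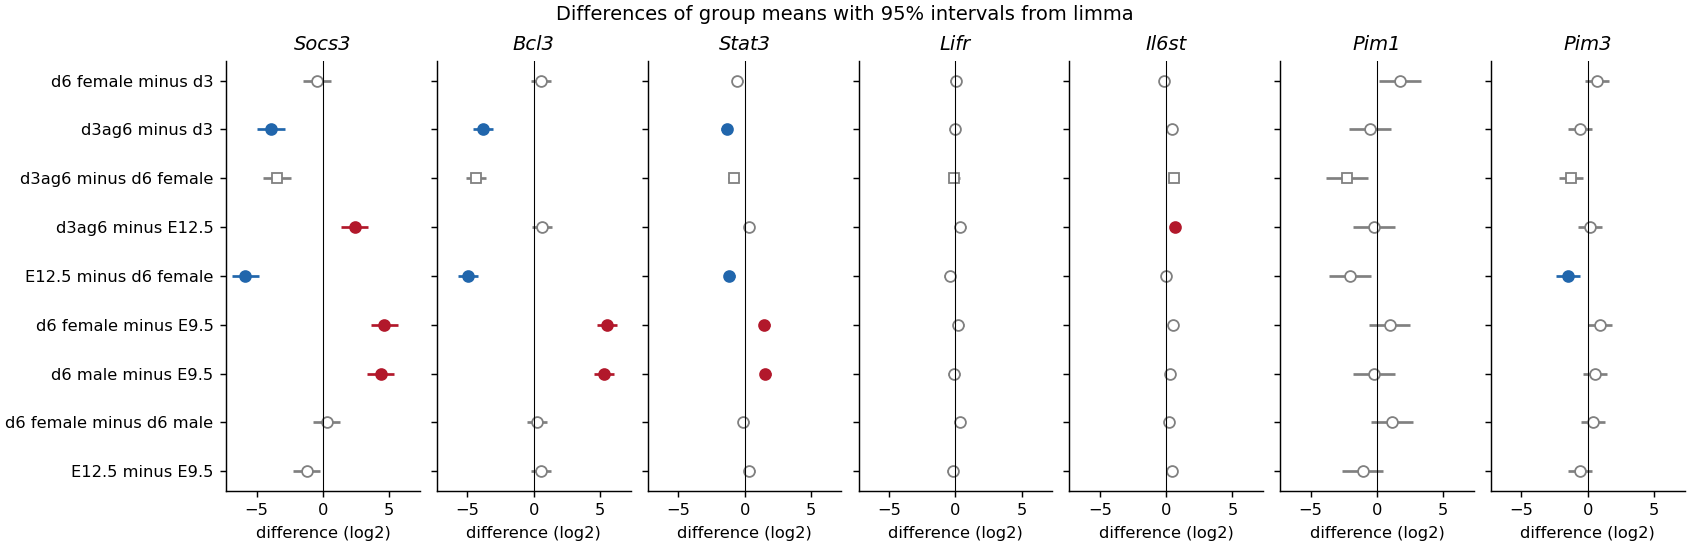
Difference of log2 group means (horizontal axis) for the 7 genes in each of 9 comparisons, with 95% intervals from limma (2 arrays per group). Filled red points were called higher, filled blue points called lower, open grey circles were not called, and open squares mark d3ag6 minus d6 female, which was not tested. Socs3, Bcl3 and Stat3 lie away from 0 in the 4 tested comparisons of culture with d3ag6 or embryo, and near 0 between d6 female and d6 male.

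The probe sets of a gene did not always behave alike. All 3 of Socs3 gave the same picture. The chosen set had a mean of 6.87 over the arrays and the next one 6.84, and this second set gave -3.64 for d3ag6 minus d3 and -4.51 for E12.5 minus d6 female. It differed in d3ag6 minus E12.5, at 1.08 against 2.40. Bcl3 had 1 probe set. The other Pim1 set stayed between 7.26 and 7.68 on all 12 arrays, a range of 0.42 against 3.31 in the chosen one, so that the variation of Pim1 rests on a single set. For Stat3, 1 of the 3 dimmer sets moved the same way (-0.92 in d3ag6 minus d3 and 1.01 in d6 male minus E9.5). It gave only -0.21 in E12.5 minus d6 female, where its higher E12.5 array (6.32) lay just below its lower d6 female array (6.33). Of the other 2, 1 ranged over 0.69 with 0.06 in d3ag6 minus d3, and 1 stayed below the median on every array. With the mean of all its sets, Stat3 was no longer called in E12.5 minus d6 female (-0.30, adjusted p = 0.239 by limma), while its other 3 calls held at smaller sizes, -0.66 in d3ag6 minus d3, 0.73 in d6 female minus E9.5 and 0.79 in d6 male minus E9.5. The next Pim3 set followed the chosen one with a range of 2.80 against 1.93, and gave -1.93 in E12.5 minus d6 female. The further sets of Lifr and Il6st were dim, with means of 3.00 to 5.17.

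**Figure D3:**
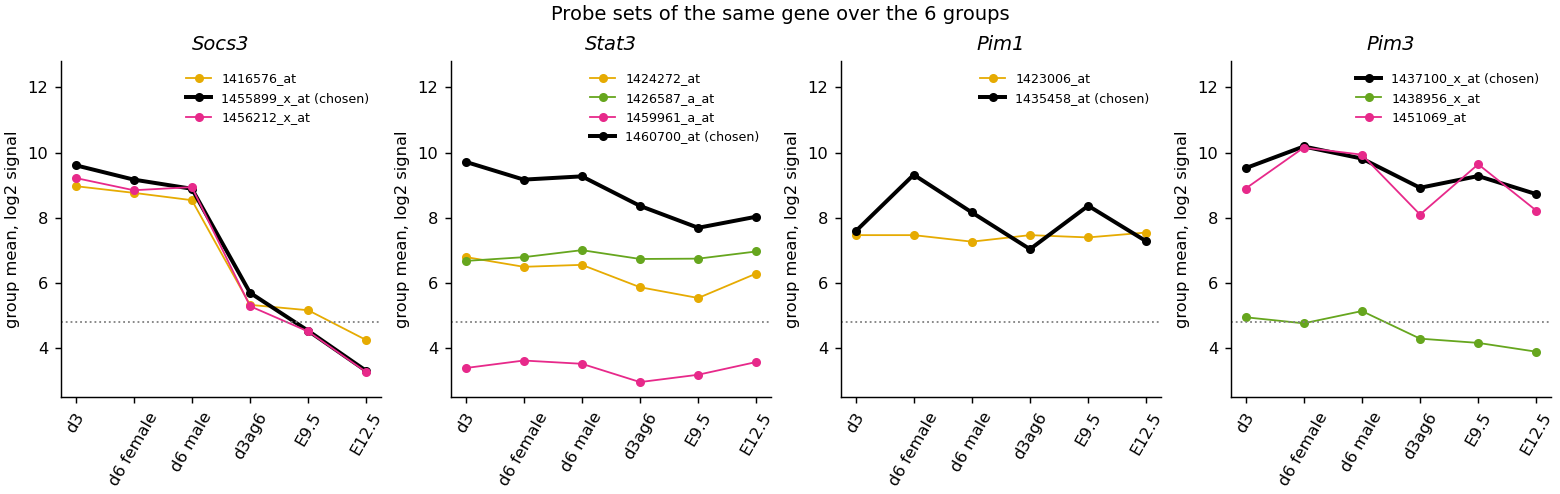
Group mean of log2 signal (vertical axis, n = 2 arrays) in the 6 groups for each probe set that names Socs3, Stat3, Pim1 or Pim3 alone; the thick black line is the chosen set, the dotted line the median of all values (4.81), and lines only join the values of 1 set. The 3 Socs3 sets fall together outside culture, the second Pim1 set is flat, and the Stat3 sets differ in level and in the size of their step.

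The rest of the pathway was followed in lists of ligands, receptors, JAK kinases, STAT factors, inhibitors, STAT3 targets and NF-κB proteins. Of the ligands, 3 were tested besides the dim ones, Lif, Osm and Ctf1. Lif, the cytokine itself, was 6.47 and 6.70 in d3, 6.75 and 6.51 in d6 female, 6.30 and 5.93 in d6 male, and 6.43 and 5.88 in d3ag6. It was 4.69 and 4.36 in E9.5 and 4.98 and 4.70 in E12.5, below both arrays of each PGCLC group. Lif was lower in E12.5 than in d6 female (-1.79, adjusted p = 0.00128 by limma), and higher than in E9.5 by 2.11 in d6 female (adjusted p = 0.000938) and by 1.59 in d6 male (adjusted p = 0.00376). Both E9.5 arrays and the lower E12.5 array of Lif lay below the median of all values, so these sizes are imprecise. Lif passed the filter on dim genes only through the PGCLC groups, so its calls are a description. In d3ag6 minus d3 Lif was not called (-0.43, adjusted p = 0.321). It was called higher in d3ag6 than in E12.5 (1.31, adjusted p = 0.0108), but not without d3ag6 replicate 1 or without either E12.5 array (adjusted p up to 0.0919). Ctf1, which encodes cardiotrophin 1, was lower in E12.5 than in d6 female (-1.23, adjusted p = 0.012), with adjusted p up to 0.1 when 1 array was left out. Limma called neither of the other 2 receptor genes tested, Il6ra and Cntfr, in any of the 8 comparisons, where 1 of the 2 had an unadjusted p under 0.05 in 4 comparisons.

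Of the 4 JAK kinases, which couple the receptors to the STATs, 2 were higher and 1 lower in d3ag6 than in d3 (Jak1 1.21 and Jak2 0.96 higher, Jak3 -1), and the same counts held in E12.5 minus d6 female (Jak1 1.03, Jak2 1.01, Jak3 -0.88). Of all genes, 10.6% and 19.4% were called in these comparisons. Each of these 6 calls was lost when some single array of the groups compared was left out, with adjusted p up to 0.188. Against E9.5, 3 of 4 were called higher and 0 lower in d6 male (Jak1 0.92, Jak3 0.91, Tyk2 0.79), where 6.04% of all genes were called higher. In d6 female 1 was higher and 0 lower (Jak3 0.85, 8.33% of all genes higher). These calls too were lost with some single array left out. Jak1 was thus lower in d6 female than in E12.5 but higher in d6 male than in E9.5. The largest JAK difference was that of Jak1 in E12.5 minus E9.5, at 1.80 (adjusted p = 0.0013 by limma, and 0.0611 with the mean of its probe sets).

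Of the 3 STAT factors tested besides Stat3, 2 were called lower and 0 higher both in d3ag6 minus d3 and in E12.5 minus d6 female, where 4.84% and 10.1% of all genes were called lower. The call of Stat6 in d3ag6 minus d3 (-1.51) was lost without d3 replicate 1, without d3ag6 replicate 1 and with the mean of its probe sets (adjusted p up to 0.109 by limma). That of Stat4 in E12.5 minus d6 female (-1.21) was lost without E12.5 replicate 1 (adjusted p = 0.0571). Stat6, best known as the mediator of interleukin 4 signalling, was 8.51 and 8.13 in d3, 7.34 and 7.31 in d6 female, 7.42 and 7.59 in d6 male, 6.52 and 7.10 in d3ag6, 6.17 and 5.27 in E9.5, and 4.93 and 5.12 in E12.5. Like Stat3, it stood higher on every culture array than on any other, and it was lower in E12.5 than in d6 female (-2.30, adjusted p = 0.00121 by limma) and higher in d6 male than in E9.5 by 1.78 (adjusted p = 0.00653). Stat4, which interleukin 12 activates in T cells, fell in d3ag6 minus d3 (-1.58, adjusted p = 0.00291) but had its highest values in E9.5, 9.56 and 9.65, and was lower in d6 female than in E9.5 (-1.44, adjusted p = 0.00398).

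Of the 14 inhibitors tested besides Socs3, such as the other SOCS proteins, the PIAS proteins and phosphatases, limma called 1 (7.14%) in d3ag6 minus d3. It was Ptpn6, higher by 0.77, and the call was lost without d3 replicate 1 or either d3ag6 array. None was called in E12.5 minus d6 female, where 2 had an unadjusted p under 0.05. Of all genes tested, 10.6% and 19.4% were called in these 2 comparisons. In d6 male minus E9.5, 2 of 14 (14.3%) were called lower and 0 higher, near the 10.6% of all genes called there. Their median difference was -0.13 in d3ag6 minus d3 and -0.24 in E12.5 minus d6 female, where the medians of all genes tested were 0.00 and -0.01. Socs2, a relative of Socs3 that restrains growth hormone signalling, ranged from 10.90 to 11.45 on the 12 arrays. All 6 culture arrays of Socs2 lay above all others (11.18 for the lowest, against 11.17 for the highest other array), and limma called it in none of the 8 comparisons. Of the 8 NF-κB and IκB genes tested besides Bcl3, limma called 0 in d3ag6 minus d3 (10.6% of all genes called), with 0 at an unadjusted p under 0.05. In E12.5 minus d6 female, 2 of 8 (25%) were lower and 0 higher, near the 19.4% of all genes called there (10.1% lower). They were Nfkb2 (-1.92, lost with the mean of its probe sets) and Nfkbib (-1.19, lost with any 1 array left out). Both E12.5 arrays of Nfkb2 (4.11 and 4.14) lay below the median of all values, so its size is imprecise.

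Of the 21 STAT3 targets tested besides Socs3, Bcl3, Pim1 and Pim3, some moved with Socs3 and others against it. In d3ag6 minus d3, 6 were lower and 0 higher (28.6% called against 10.6% of all genes), with a median of -0.58 where all genes tested had 0.00, and 4 or 5 were lower with 1 array left out. In E12.5 minus d6 female, 10 were lower and 3 higher (61.9% against 19.4%, median -0.58 against -0.01). With any 1 of its 4 arrays left out, 6 were lower and 1 to 3 higher, and without E12.5 replicate 1 the calls of Klf4, Klf5, Mcl1 and Icam1 were among those lost. In d6 female minus E9.5, 7 were higher and 3 lower (47.6% against 13.9%, median 0.37 against 0.06), and 5 or 6 were higher with 1 array left out. In d6 male minus E9.5, 7 were higher and 2 lower (42.9% against 10.6%, median 0.35 against 0.00), and 4 to 6 were higher with 1 array left out. In the comparisons within either side, d6 female minus d3 gave 0 higher and 2 lower (9.52% against 4.06%), and d6 female minus d6 male 1 and 0 (4.76% against 1.47%). In d3ag6 minus E12.5 it was 4 and 2 (28.6% against 9.03%), with 2 higher when any 1 array was left out. Junb and Zfp36 were both lost without d3ag6 replicate 1 and without E12.5 replicate 2 (adjusted p up to 0.161 and 0.131 by limma over all arrays left out). In E12.5 minus E9.5 it was 4 and 3 (33.3% against 23.6%). Many of these targets respond to other signals as well, and the list was drawn up with earlier results of these arrays known.

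Junb, an AP-1 factor induced by many signals, followed Socs3 closely. It was 9.39 and 9.83 in d3, 9.06 and 9.05 in d6 female, 9.42 and 8.96 in d6 male, 7.64 and 6.89 in d3ag6, 6.71 and 6.05 in E9.5, and 5.99 and 5.72 in E12.5. It was lower in d3ag6 than in d3 (-2.35, adjusted p = 0.00217 by limma) and in E12.5 than in d6 female (-3.20, adjusted p = 0.000271), and higher than in E9.5 in d6 female (2.67) and d6 male (2.81). Of the 21 targets, 4 had all culture arrays above all others, namely Junb, Tfcp2l1, Zfp36 and Icam1, as did 1.77% of all genes tested. Tfcp2l1, a transcription factor of the naive pluripotency network, was lower in E12.5 than in d6 female (-1.89, adjusted p = 0.000181), a call that was lost with the mean of its probe sets (-0.22). Icam1, a cell adhesion molecule, was higher than in E9.5 by 3.41 in d6 female and by 3.57 in d6 male (adjusted p = 0.000312 and 0.000286). Both E9.5 arrays of Icam1, at 4.51 and 3.68, lay below the median of all values, so these sizes are imprecise. Zfp36, which encodes an mRNA decay factor, was lower in E12.5 than in d6 female (-2.11, adjusted p = 0.00173).

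Gbx2, a homeobox gene that is a STAT3 target in embryonic stem cells, went the other way in 3 of these 4 comparisons. It was 7.72 and 7.91 in d3, 5.60 and 5.77 in d6 female, 6.62 and 6.08 in d6 male, 3.97 and 4.55 in d3ag6, 8.40 and 8.37 in E9.5, and 7.81 and 8.10 in E12.5. It fell from d3 to d6 female by 2.13 (adjusted p = 0.003 by limma) and was lower in d3ag6 than in d3 (-3.56, adjusted p = 0.000123), a size that is imprecise because both d3ag6 arrays lay below the median of all values. In E12.5 it exceeded d6 female by 2.26 (adjusted p = 0.000442), and d6 male lay below E9.5 (-2.04, adjusted p = 0.00129). Ccnd1 and Myc were also lower in d6 female than in E9.5 (-2.18 and -1.46, adjusted p = 0.0068 and 0.0112 by limma). Both calls were lost with some single array left out. Ier3 was lower in E12.5 than in d6 female (-2.65, adjusted p = 0.000463) but did not show the step between culture and the other groups. It was 8.38 and 8.11 in d3, 9.09 and 9.33 in d3ag6, and 9.78 and 9.63 in E9.5.

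**Figure D4:**
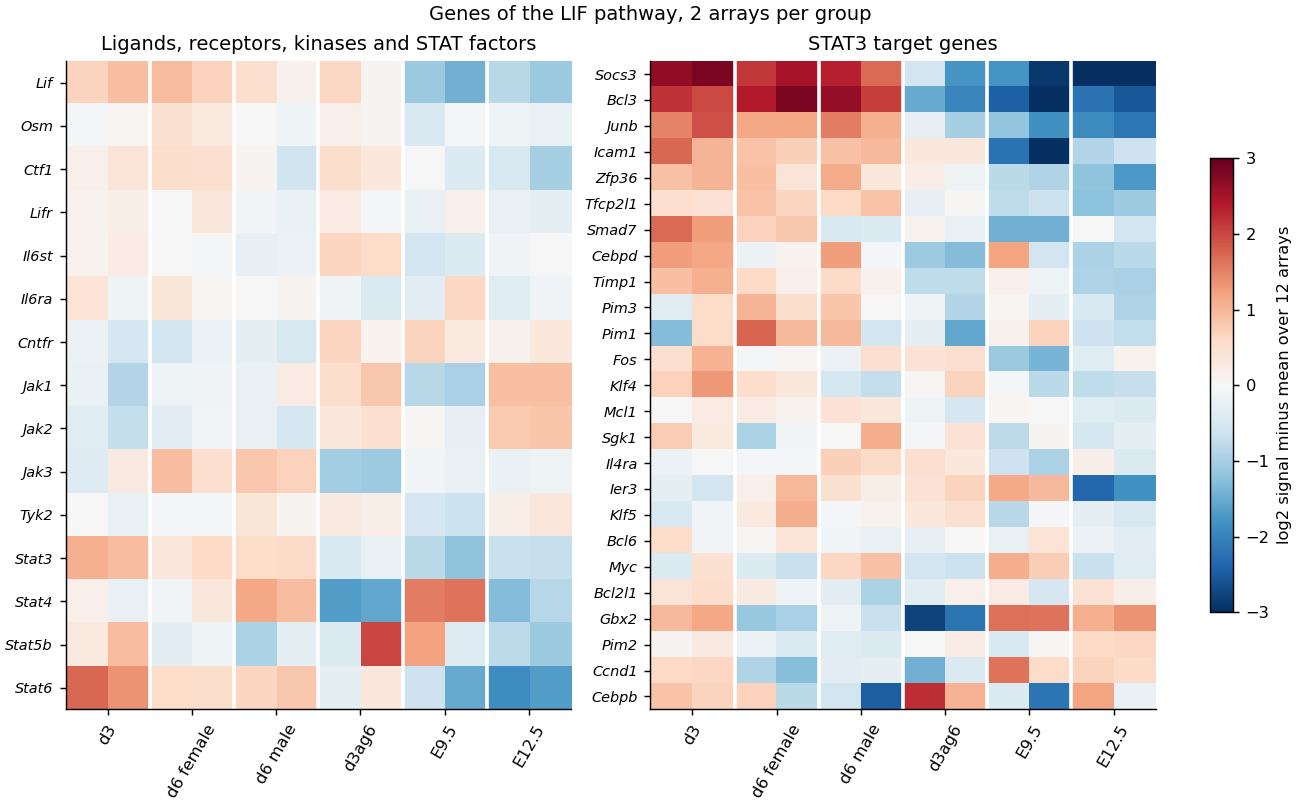
Log2 signal minus the mean of the gene over the 12 arrays (colour, from -3 in blue to 3 in red) for the tested ligands, receptors, JAK kinases and STAT factors (left) and STAT3 targets (right), with the 2 arrays of each group side by side. Targets are ordered by their mean in culture minus that in the other groups, so that Socs3, Bcl3 and Junb head the column, while Gbx2 is bluest in d3ag6 and red in d3, E9.5 and E12.5.

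By Pearson correlation over the 12 arrays, the 5 genes most like Socs3 were Junb (0.993), Spsb2 (0.975), Bvht (0.972), Tdgf1 (0.966) and Mybl2 (0.961), and the 5 most like Bcl3 were Slc39a2 (0.973), Als2cl (0.971), Itpk1 (0.962), Rtn4 (0.960) and Socs3 (0.958). All 10 genes had every culture array above every other array, and arrays of 1 group are not independent conditions, so the coefficients are given as descriptions. Among the 7 genes, Socs3, Bcl3 and Stat3 were correlated at 0.93 to 0.96, Pim1 and Pim3 at 0.86, and Lifr and Il6st at 0.06 to 0.49 with Socs3 or Bcl3. Tdgf1, which encodes the Nodal co-receptor Cripto, had group means of 11.72 in d3, 9.46 in d3ag6 and 6.53 in E12.5.

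Markers of other cells and of handling moved with some of these differences. Immediate early genes, which rise quickly during cell dissociation as well as on signalling, had a log2 of the summed signal over all 9 genes of 12.61 to 12.94 on the culture arrays, 12.16 to 12.24 in d3ag6, 11.82 to 11.99 in E9.5 and 11.79 to 11.88 in E12.5. That is the group order of Socs3, and Junb is on this list too. In d3ag6 minus d3, 2 of 9 were lower and 0 higher (4.84% of all genes lower), and Egr1, not called there, was 0.60 higher with both d3ag6 arrays above both of d3. In E12.5 minus d6 female, 4 of 9 were lower and 0 higher (10.1% lower). Against E9.5, 5 of 9 were higher and 0 lower in d6 female (8.33% higher) and in d6 male (6.04% higher), and E12.5 minus E9.5 gave 2 higher and 2 lower (23.6% of all genes called). Their part in the differences of Socs3 and Bcl3 was not tested.

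The summed signal of 10 blood and macrophage markers was 10.78 to 11.08 in d3ag6 and 8.39 to 8.97 in the other groups, led by Tyrobp, Ctss and Lyz2. Fcer1g and C1qa stayed below the median in d3ag6 too. Of these, Fcer1g overlapped between d3ag6 (4.69 and 4.79) and d6 female (4.80 and 4.36), while C1qa was higher in d3ag6 (4.54 and 4.13) than on any other array. The gonadal somatic list of 9 genes stood at 9.11 to 9.14 in d3ag6, 8.48 to 9.46 in E9.5 and 8.07 to 8.61 in the others, with Nr5a1 below the median on all arrays. The 5 erythroid markers measured reached 12.77 to 13.96 in E9.5 against 6.17 to 8.31 elsewhere, and the 7 mesenchyme markers 10.06 to 11.30 against 7.64 to 9.88. The 7 endothelial markers were highest in d6 male, at 11.33 to 11.53, and ranged from 8.70 to 10.83 in the other groups. Germ cell markers, 8 genes measured, summed to 14.42 to 15.20 in all groups. Single genes of that list varied far more. Dazl ranged from 3.81 on an E9.5 array to 13.04 on an E12.5 array, and Ddx4 from 8.08 in d3 to 12.55 in E12.5. Other cells' part in the values of the 7 genes, including Il6st in d3ag6, was not tested.

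**Figure D5:**
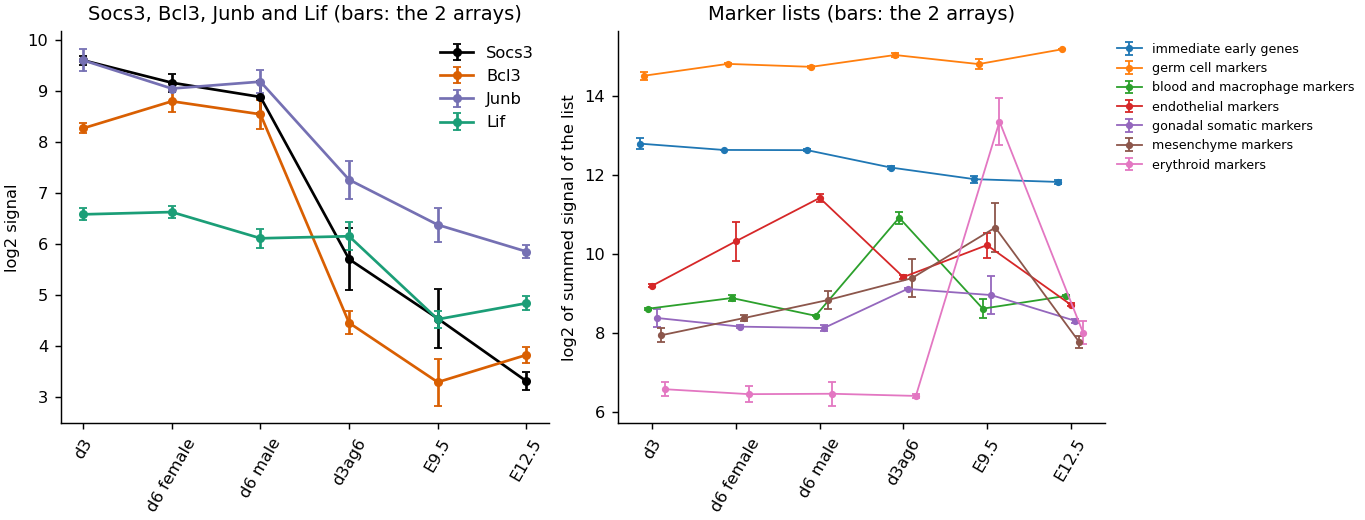
Left, log2 signal of Socs3, Bcl3, Junb and Lif by group; right, log2 of the summed signal of each marker list by group. Points are means, bars span the 2 arrays and lines only join the values of a gene or list: immediate early genes step down from culture (12.61 to 12.94) to E12.5 (11.79 to 11.88), blood and macrophage markers peak in d3ag6, and erythroid markers peak in E9.5.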

How the data were processed

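Per the labels' protocols, FACS was used to sort cells, cDNA of 5 ng RNA was amplified with 12 initial PCR cycles, and labelled RNA was hybridised. The deposited table holds 1 log2 value per probe set (45101) and array; the log2 scale was read from the range (array maxima 13.76 to 13.93), and summarisation, normalization and log base are not given in the sources used here. Array medians of 4.73 to 4.87 differed by more than 0.1, so values were quantile normalized. Platform annotation gave 1 gene for 34958 probe sets, several for 932 and none for 9211; 34754 were matched by gene ID. Genes with at least 2 arrays above 4.81, the median of all values, were tested with limma 3.58.1 (R 4.3.3), 1 mean per group, eBayes, two-sided. With 2 arrays per group, their number limits the precision. Tables and figures were made with Python 3.11.15, pandas 2.3.3, numpy 2.4.6 and matplotlib 3.10.9, and steps were tested on simulated data.

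The members and lists were chosen with earlier results of these data known. Named are the 7 members, up to the 3 largest calls of at least 1 log2 per pathway list and comparison, and the 5 genes most like Socs3 or Bcl3; Jak2, Ptpn6, Socs2, Il6ra, Cntfr, Zfp36, Klf4, Klf5, Bcl6, Sgk1, Egr1 and calls under 1 log2 were named after their values were seen. Some genes of the lists were not analysed here. Il6, Il11, Clcf1, Osmr, Il27ra, Stat2, Stat5a, Socs1 and Lrg1 were measured and fell under the filter. Other settings were no quantile normalization, no filter or one at the 75th percentile, the mean of probe sets, a replicate block, a trended robust eBayes, each array left out, and 3 settings added after the data were seen: the second Socs3 set, the second Pim1 set, and values below the median set to it.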

Additional observations from a re-analysis of the deposited data

How the results depend on the processing

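The calls of Socs3 and Bcl3 in d3ag6 minus d3, E12.5 minus d6 female, d6 female minus E9.5 and d6 male minus E9.5 held in every setting run. Of the differences of the 7 genes under other settings, 653 kept direction and side of the threshold, 16 lost the call, 8 gained one, 27 changed sign and 7 untested ones moved beyond the spread. The number of members called moved by over 1.5 times in 3 comparisons, where the cause was not tested. In d3ag6 minus E12.5 (2 called) it was 1 with the mean of probe sets, 1 with values below the median set to it, and 0 to 1 with 1 array left out. In E12.5 minus d6 female (4 called) it was 2 with the mean of probe sets, and 3 with no filter and with any 1 array left out, where Pim3 lost its call. In E12.5 minus E9.5 (0 called) it was 1 with the filter at the 75th percentile, with the trended robust eBayes, with the second Socs3 set and with values below the median set to it, and 0 to 1 with 1 array left out; 1 arose without E9.5 replicate 2, where Socs3 was -1.80 (adjusted p = 0.0342 by limma). Outside these 3 comparisons, the number moved by less in d6 female minus E9.5 (3 called). It was 4 there, with Il6st, with the filter at the 75th percentile, with the trended robust eBayes and with values below the median set to it.

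Sign changes were of differences that were not called or not tested. With the mean of probe sets, Il6st became 0.03 in d6 female minus d3, 0.09 in E12.5 minus d6 female and -0.02 in d6 male minus E9.5, Stat3 became -0.23 in d3ag6 minus E12.5, and Lifr became -0.27 in d3ag6 minus E12.5, 0.11 in d6 male minus E9.5 and -0.10 in d6 female minus d6 male. With the second set, Pim1 was 0.00 in d3ag6 minus d6 female, 0.08 in E12.5 minus d6 female and 0.15 in E12.5 minus E9.5. With 1 array left out, Lifr ranged from -0.13 to 0.18 in d6 female minus d3, -0.20 to 0.09 in d3ag6 minus d3, -0.24 to 0.08 in d3ag6 minus d6 female and -0.28 to 0.09 in d6 male minus E9.5. Pim1 ranged from -1.47 to 0.38 in d3ag6 minus d3, -0.88 to 0.40 in d3ag6 minus E12.5 and -0.98 to 0.57 in d6 male minus E9.5, and Pim3 from -0.20 to 0.58 in d3ag6 minus E12.5. In d6 female minus d6 male the ranges were -0.23 to 0.03 for Stat3, -0.04 to 0.59 for Socs3, -0.02 to 0.53 for Bcl3 and -0.05 to 0.78 for Pim3.

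With the replicate block, the members called were 3 in d3ag6 minus d3, 2 in d3ag6 minus E12.5, 4 in E12.5 minus d6 female, 3 in both comparisons with E9.5 of d6 cells and 0 in the other 3 tested, as without it. Between d6 male and E9.5 the replicate number is also the code in the titles (correlation 0.55), so the block there is also one by code. Elsewhere arrays share only a number: deviations of same-numbered arrays correlated at -0.25 to 0.55 over 15 pairs of groups, above 0.1 in 8. A group left with 1 array is assumed to vary like the others. Signal near the median limits the size of the Socs3 and Bcl3 differences against the dim groups.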

Other observations

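Ranking all 13436 genes tested by the gap between the lowest culture array and the highest other array, a ranking made after the values were seen, gave 4 genes with a gap of at least 2 log2. These were Bcl3 (3.50), Socs3 (2.27), Naprt (2.26) and Vwa5a (2.21). Naprt encodes an enzyme of NAD synthesis from nicotinic acid, and its lowest culture array was 8.05 where its highest other array was 5.79. For Vwa5a these values were 6.39 and 4.18. The ranking includes the contrast by which Socs3 and Bcl3 were chosen, so their place in it is a description and supports nothing further.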
